A study of Mus musculus with 24 samples.

Results

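The proteasome is the large protease that degrades ubiquitin-tagged proteins in the cytosol and nucleus. Its core particle is a barrel of alpha rings, which gate the entrance, and beta rings, which carry the peptidase sites. A regulatory particle, made of a base with an ATPase ring and a lid, binds tagged proteins, removes the ubiquitin and feeds the unfolded chain into the core. Cells raise many subunit genes together when proteasome activity is short, through the transcription factor Nfe2l1, and interferon replaces the standard peptidase subunits with inducible ones. In liver the system turns over enzymes of lipid and amino acid metabolism.

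The genes described here were those whose single symbol in the array's annotation began with Psm, a letter from a to g and a digit, leaving out the inducible peptidases Psmb8, Psmb9 and Psmb10. The rule found 47 of the 19938 genes on the array, measured by 53 probe sets, and each gene was represented by its probe set with the highest mean. By function, 45 of them are subunits, assembly chaperones or regulators. Psmc3ip, a factor of meiotic recombination, and Psme3ip1, a protein that binds the activator Psme3, match the spelling only and are counted with the rest. The mean signal of 43 genes was above the median of all genes, 7.01 on the log2 scale. Psma8, the testis alpha subunit, Psmb11, the thymus peptidase subunit, the core chaperone Psmg3 and Psmc3ip lay below it, at 5.29, 5.76, 6.56 and 5.74. Psma8, Psmb11 and Psmc3ip were near or below the 25th percentile of the arrays, which ran from 5.54 to 5.78.

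Liver RNA of wild-type male C57Bl/6 mice had been hybridised to Affymetrix MoGene 1.0 ST arrays, 1 array per mouse. The mice formed 4 groups of 6, being either conventional (carrying microbes) or germ-free (raised without them) and eating either menhaden fish oil or lard as the fat. Both diets gave 45% of energy as fat for 11 weeks, and food was withdrawn for 4 hours before the livers were taken. Age is labelled 11 weeks in every mouse, and 11 weeks of feeding fits that age only for mice fed from birth; how old the mice were when sampled is not settled by the labels. Each group was therefore a high-fat group, and no low-fat diet was among the samples.

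Fish oil germ-free mice 3 and 4 were nearly the same measurement over the most variable genes. Over the 300 most variable genes their log2 difference had an SD of 0.123, against 0.349 or more in every other pair of mice of 1 group. Over the 300 most variable of all probe sets the pair stood less apart, at 0.525 against 0.631 or more. Fish oil germ-free mice 3 and 4 were averaged and counted as 1 sample, called sample 3 below, which leaves 23 samples and 5 in that group. All 8 hepatocyte markers were measured, and their summed signal stayed between 100887 and 110822 in every sample. Some mice stood apart from the rest of their groups. Fish oil conventional mice 5 and 6 carried the acute phase gene Saa1 at 11.6 and 10.8, while mice 1 to 4 lay at 6.03 to 7.61. Mice 5 and 6 of both germ-free groups had array 75th percentiles of 8.75 to 8.79, against 8.87 to 8.92 in the other germ-free samples. In fish oil germ-free mice 5 and 6 the clock index, the log2 signal of Dbp minus that of Arntl, was 0.12 and -0.77, against 3.24 to 4.09 in the other 3 samples.

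The first comparison asked what fish oil in place of lard does in mice with microbes. No proteasome gene passed the test. All differences, fish oil minus lard, lay between -0.33 and 0.20 on the log2 scale, with a median of -0.050, against 0.013 over all genes. Among genes above the median signal, where most proteasome genes lie, these medians were -0.057 and -0.041. Of all genes, 0.206% were called higher and 0.602% lower (limma, Benjamini-Hochberg adjusted p under 0.05 over all 19938 genes). At an unadjusted p under 0.05 the count was 3 of 47, against 16.6% of all genes, and limma with a trended and robust variance also called 0. The 95% interval of every one of the 47 differences lay within 1.5-fold either way, as did that of 94.3% of all genes.

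By role, the 3 constitutive peptidase subunits, Psmb5, Psmb6 and Psmb7, lay between -0.15 and -0.10. The 6 ATPases of the base lay between -0.073 and 0.085, and the 8 lid genes, which include the deubiquitinase Psmd14, between -0.080 and 0.094. The alpha ring ran from -0.19 (Psma5, whose second probe set gave 0.0031) to 0.065 (Psma4). The 3 chaperones that assemble the base were the lowest group, at -0.33 for Psmd10, -0.16 for Psmd9 and -0.16 for Psmd5, and none passed the test.

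Psmd10, an ankyrin-repeat chaperone of the base also known as gankyrin, is singled out here after its values were seen. Its signal in the lard conventional mice had a lowest value of 8.81, a median of 8.96 and a highest value of 9.19. In the fish oil conventional mice these values were 8.23, 8.69 and 8.91. The fish oil values were mostly lower, and the 2 groups overlapped. The difference was -0.33 (SE 0.096, 95% interval -0.53 to -0.13, adjusted p = 0.0857). The same contrast in germ-free mice gave -0.29 (SE 0.10, interval -0.49 to -0.080, adjusted p = 0.0604). Its germ-free samples on fish oil were at 8.89, 8.91, 8.94, 8.67 and 8.61, against a lowest value of 8.88, a median of 9.10 and a highest value of 9.25 on lard. Psmd10 passed the threshold in 2 of 27 alternative settings in conventional mice (without fish oil mouse 1 or 4) and in 5 of 26 in germ-free mice.

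The second comparison made the same change of fat in germ-free mice, where many more genes differed. Of all genes, 4.58% were called higher and 8.59% lower on fish oil. Among the proteasome genes 3 of 47 rose, 1 from the alpha ring, 1 from the base and 1 from the lid, and 0 fell. Their share of 6.38% was close to the 4.58% of all genes. The median difference was 0.010, against 0.003 over all genes, and 14 of 47 had an unadjusted p under 0.05, against 25.2% of all genes. Among genes above the median signal the medians were 0.010 and -0.017. Again all 47 intervals lay within 1.5-fold, as did 88.5% of all genes. The plot of differences for the 47 genes shows how small the shifts were in each comparison.

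**Figure D1:**
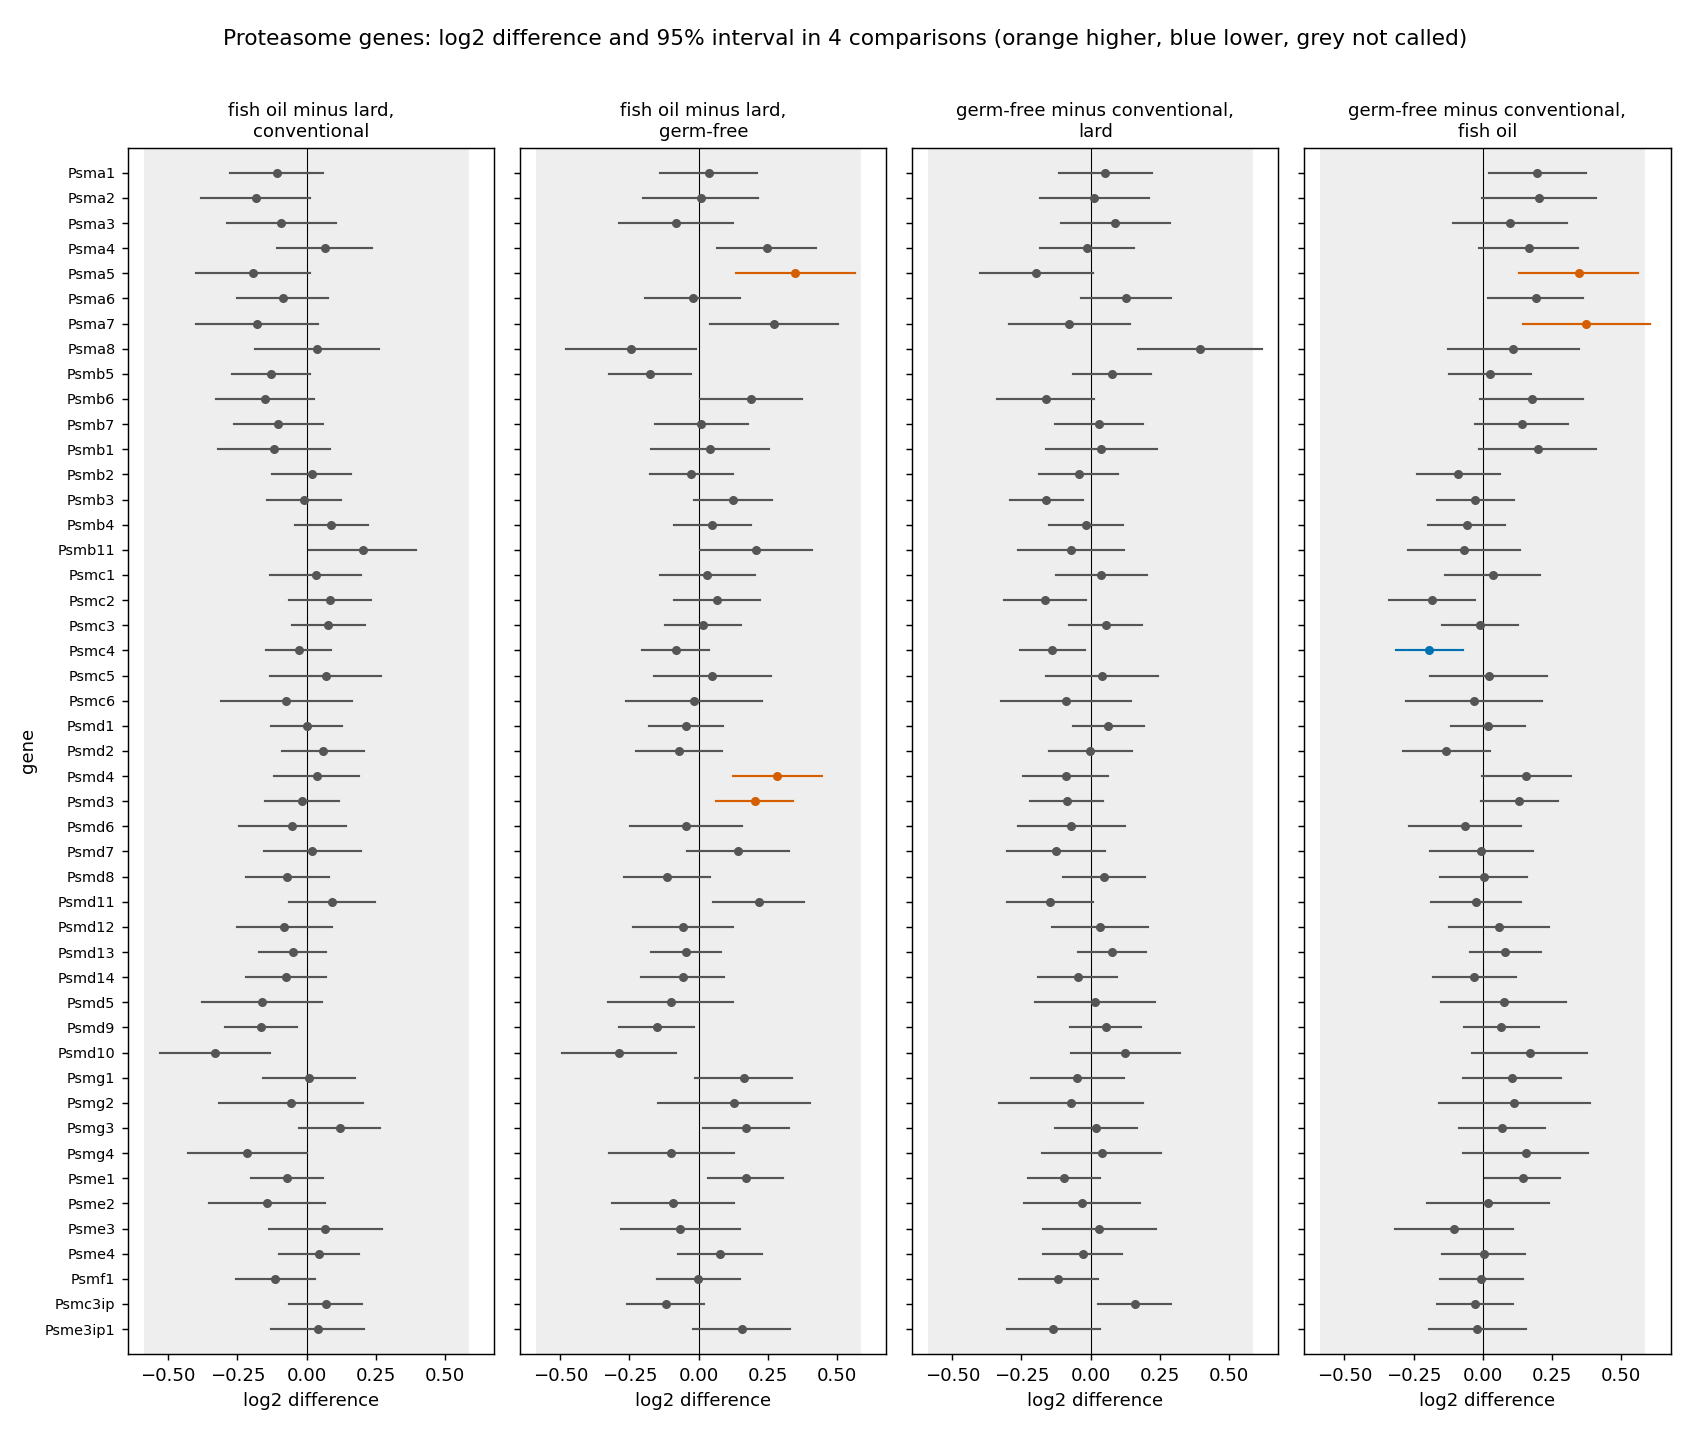
Log2 differences of the 47 proteasome genes (rows, ordered by role) in 4 comparisons, with points for the estimate, lines for the 95% interval and a grey band for differences within 1.5-fold. Orange marks genes called higher and blue genes called lower: 3 higher by diet in germ-free mice, 2 higher and 1 lower by microbial status on fish oil, and 0 in the other comparisons.

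Psmd4 encodes a ubiquitin receptor of the base, a subunit that catches tagged proteins. Its signal in the fish oil germ-free samples 1, 2, 3, 5 and 6 was 9.83, 9.58, 9.68, 9.88 and 9.76. In the lard germ-free mice it had a lowest value of 9.25, a median of 9.50 and a highest value of 9.58. All but the lowest fish oil sample were above every lard mouse. The difference was 0.28 (SE 0.078, 95% interval 0.12 to 0.44), a 1.22-fold rise, with an adjusted p of 0.0154. Over the 11 settings that each left out 1 sample it ran from 0.24 to 0.33, and the call was lost only without fish oil sample 5.

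Psma5 encodes an alpha subunit of the gate. Its fish oil germ-free samples stood at 9.33, 9.47, 9.57, 9.41 and 9.49, and the lard germ-free mice had a lowest value of 8.83, a median of 9.06 and a highest value of 9.42. Only lard mouse 1 reached the level of the fish oil samples. The difference was 0.35 (SE 0.10, interval 0.13 to 0.56), or 1.27-fold, with an adjusted p of 0.0263. The call was lost without fish oil sample 3 or 6 or without lard mouse 2, 4 or 5. Over all 11 settings that each left out 1 sample, the difference stayed between 0.29 and 0.41. A second probe set of the gene gave 0.36 with an adjusted p of 0.0225 over all single-symbol probe sets.

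Psmd3 encodes a scaffold subunit of the lid. The fish oil germ-free samples were at 10.05, 9.79, 9.89, 10.01 and 9.93, and the lard germ-free mice ran from 9.54 through a median of 9.77 to 9.85. The groups overlapped in 1 fish oil sample. The difference of 0.20 (SE 0.067, interval 0.064 to 0.34), or 1.15-fold, had an adjusted p of 0.0474, close to the threshold. The call was lost in 15 of 26 alternative settings, 8 of which left out a single sample: fish oil 1, 3, 5 or 6, or lard 1, 4, 5 or 6. Over all 11 settings that each left out 1 sample, the difference ranged from 0.16 to 0.24.

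The plot of the called genes shows these samples one by one. In Psmd4 and Psmd3, lard germ-free mice 5 and 6 were the lowest of their group, and over all 47 genes these 2 mice were the lowest of their group in 17 and 14. Without mice 5 and 6 of both germ-free groups the count of called proteasome genes fell from 3 to 0, while 1432 of all genes were still called, against 2625 before. The differences were then 0.16 for Psmd4, 0.27 for Psma5 and 0.11 for Psmd3. A covariate for the clock index also left a count of 0, with 1575 of all genes called. With arrays scaled to equal medians it was 8, all higher (Psma4, Psma5, Psma7, Psmd4, Psmd3, Psmd11, Psmg3 and Psme1), and 5 higher and 1 lower after a second quantile normalization.

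**Figure D2:**
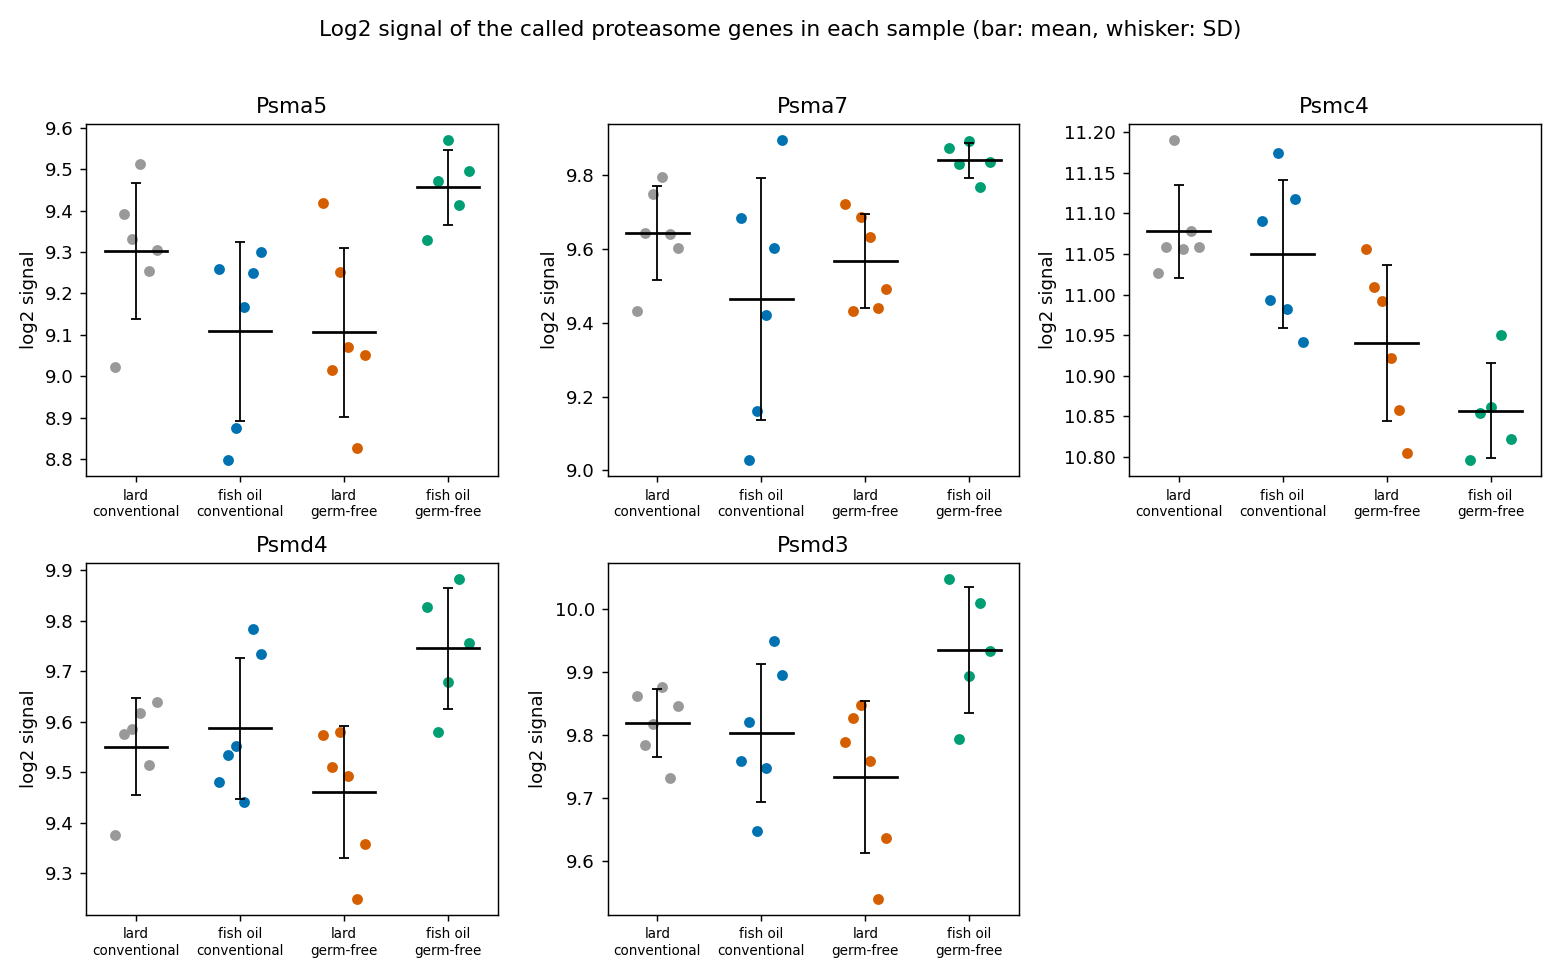
Log2 signal of the 5 called proteasome genes (a panel each) in every sample of the 4 groups; the bar is the group mean and the whisker 1 SD over 6 mice, or 5 samples for fish oil germ-free. The fish oil germ-free samples are the highest group in Psma5, Psma7, Psmd4 and Psmd3 and the lowest in Psmc4, by group mean, and in each panel their range overlaps that of at least 1 other group.

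Other germ-free diet differences were not called. The alpha ring split, from -0.25 for Psma8 to 0.35 for Psma5, with 5 of 8 above 0. The peptidase subunits also split, at -0.18 for Psmb5, the chymotrypsin-like site, 0.19 for Psmb6, the caspase-like site, and 0.010 for Psmb7, the trypsin-like site. The 6 ATPases lay between -0.083 and 0.067. The core chaperones Psmg1 to Psmg4 had a median of 0.15 and the base chaperones a median of -0.15. Activators ran from -0.094 (Psme2) to 0.17 (Psme1), and the inhibitor Psmf1 was at -0.0004. Markers of other liver cells differed between these 2 groups. On fish oil 6 of 7 stellate cell and fibroblast markers and 4 of 5 cholangiocyte markers were lower, 1 of 6 endothelial markers was lower, 1 of 10 Kupffer cell markers and 1 of 7 lymphocyte markers were higher, and 0 of 8 hepatocyte and 0 of 8 neutrophil markers passed. The summed stellate signal was 6405 to 7422 on fish oil and 9742 to 11002 on lard, without overlap. In whole liver, fewer cells of a type and less RNA per cell cannot be told apart, and the part of these shifts in the proteasome values was not tested.

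Next, the effect of lacking microbes was read on the lard diet alone. No proteasome gene was called, beside 1.13% of all genes higher and 0.687% lower in germ-free mice. The median was -0.013, against -0.008 over all genes, or -0.017 and -0.009 among genes above the median signal. At an unadjusted p under 0.05 there were 5 of 47, against 12.2% of all genes, and limma with a trended and robust variance called 0. The intervals of 46 genes lay within 1.5-fold (94.3% of all genes). The exception was Psma8, the testis alpha subunit, named after its values were seen, at 0.39 (interval 0.17 to 0.62, adjusted p = 0.0609). Its signal was among the lowest of the 47, between 4.92 and 5.75 over all samples. Psma8 passed in 4 of 27 alternative settings. By role, the lid ran from -0.15 (Psmd11) to 0.077 (Psmd13), the ATPases from -0.17 (Psmc2) to 0.054 (Psmc3) and the structural beta subunits from -0.16 (Psmb3) to 0.039 (Psmb1), and the 3 base chaperones were between 0.016 and 0.13. The Kupffer cell markers were lower in germ-free mice in 4 of 10 cases here, with a median of -0.66, and the summed signal of the list was 4059 to 7870 in germ-free and 8121 to 11964 in conventional mice. Stellate markers were higher in 3 of 7 cases and cholangiocyte markers in 1 of 5, 1 of 7 lymphocyte markers was lower, and 0 of 8 hepatocyte, 0 of 8 neutrophil and 0 of 6 endothelial markers passed. The part of these shifts was not tested.

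On fish oil, 2 proteasome genes rose and 1 fell in germ-free against conventional mice. The background was 3.01% of all genes higher and 3.89% lower, so 4.26% and 2.13% of the proteasome genes were close to it. The median was 0.036, against -0.026 over all genes, with 7 of 47 at an unadjusted p under 0.05 (20.3% of all genes). Among genes above the median signal the medians were 0.036 and 0.013. The intervals of 46 genes stayed within 1.5-fold (90.8% of all genes), and that of Psma7 did not.

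Psma7, an alpha subunit, had the largest difference of the 47 genes here. The fish oil germ-free samples were at 9.87, 9.83, 9.89, 9.77 and 9.84, and the fish oil conventional mice spread from 9.03 through a median of 9.51 to 9.90. The germ-free samples thus fell within the top of a wide conventional range. The difference was 0.37 (SE 0.11, interval 0.15 to 0.60), or 1.30-fold, with an adjusted p of 0.0412. The call was lost in 13 of 26 alternative settings, among them those without conventional mouse 2, 3 or 4 or without any 1 of the 5 germ-free samples. Over all 11 settings that each left out 1 sample, the difference lay between 0.29 and 0.46.

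Psma5 moved the same way, from a lowest value of 8.80, a median of 9.21 and a highest value of 9.30 in conventional mice to the germ-free values given above. All 5 germ-free samples were above all 6 conventional mice. The difference was 0.35 (SE 0.10, interval 0.13 to 0.56), or 1.27-fold, with an adjusted p of 0.0431. The call was lost in 14 of 26 alternative settings, among them those without the same 3 conventional mice or any 1 of the 5 germ-free samples. Over all 11 settings that each left out 1 sample, the difference was 0.29 to 0.39. The second probe set gave 0.31 with an adjusted p of 0.0760, which is not called. These 2 diet and microbial contrasts of Psma5 share the fish oil germ-free samples.

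Psmc4, an ATPase of the base ring, was lower. Its germ-free samples were at 10.80, 10.85, 10.86, 10.95 and 10.82, and the conventional mice ran from 10.94 through a median of 11.04 to 11.17. Only germ-free sample 5 reached the conventional range. The difference was -0.19 (SE 0.059, interval -0.32 to -0.071), a 1.14-fold fall, with an adjusted p of 0.0487. The call was lost in 13 of 26 alternative settings. Equal array medians brought the difference to -0.12 and ended the call. A trended and robust variance, a fit on its own groups and the clock index as a covariate also ended it. Of the settings without 1 sample, the call was lost without conventional mouse 1, 2, 3, 4 or 5 or germ-free sample 1, 2, 3 or 6. Over all 11 of these settings, with or without the call, the difference lay between -0.22 and -0.17.

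All 8 alpha ring genes were above 0 in this contrast, from 0.099 for Psma3 to 0.37 for Psma7, with a median of 0.19, and 2 of them passed the test. The count above 0 remained 8 of 8 with equal array medians, with a second quantile normalization and without either set of mice 5 and 6. Over all genes 42.1% were above 0. That share includes weakly measured genes, and among genes above the median signal the median of all genes was 0.013. The 8 alpha ring genes are not independent counts: within groups, Psma5 and Psma7 deviated together (r = 0.84). Psma8 also had a very low signal. Of the ATPases 2 of 6 were above 0, with a median of -0.020, and this count was 4 with equal medians and 0 after the second quantile normalization. All 3 peptidase subunits, 0.027 to 0.18, and all 4 core chaperones, 0.070 to 0.16, were above 0 without a call. The lid lay between -0.064 and 0.13, with 4 of 8 above 0, or 8 of 8 with equal medians. The difference between roles was not tested. With each comparison fitted on its own groups, 0 proteasome genes were called in place of 3, while 581 of all genes were, and without fish oil conventional mice 5 and 6 there were 6 (Psma4, Psma5, Psma7, Psmb6, Psmc4 and Psmd4). The count was 0 without conventional mouse 2, 3 or 4 or without germ-free sample 1, 2, 3 or 6, and 1 without germ-free sample 5. Kupffer cell markers were lower in 7 of 10 cases and endothelial markers in 5 of 6, and 1 of 8 neutrophil, 1 of 7 stellate and 1 of 5 cholangiocyte markers were lower, with 0 of 8 hepatocyte and 0 of 7 lymphocyte markers called. The summed Kupffer signal was 5313 to 7405 in germ-free and 7941 to 15515 in conventional mice, and its part in these values was not tested.

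Whether the diet effect depended on microbes was tested as the difference between the 2 diet contrasts. No proteasome gene passed, beside 0.216% of all genes higher and 0.391% lower. At an unadjusted p under 0.05 there were 6, all above 0, against 12.2% of all genes in either direction, and limma with a trended and robust variance called 0. Psma5, named after its values were seen, came closest, at 0.54 (interval 0.25 to 0.84, adjusted p = 0.0765), being -0.19 in conventional and 0.35 in germ-free mice. It passed in 4 of 37 alternative settings. The second Psma5 probe set gave 0.36 here, with an adjusted p of 0.302 over all single-symbol probe sets. By diet in conventional mice that probe set gave 0.0031, in place of -0.19. The intervals of 43 genes lay within 1.5-fold, as did those of 84.8% of all genes; Psma5, Psma7, Psma8 and Psmb6 were the others. Of the alpha ring 7 of 8 were above 0, with a median of 0.16, and of the ATPases 1 of 6, with a median of -0.019. In this test 4 of 7 stellate and 2 of 5 cholangiocyte markers were lower and no other marker list had a called gene; their part was not tested.

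The 4 groups differed in how much the genes varied among mice. In the fish oil conventional group the median SD of the 47 genes was 0.20, above the 0.16 of all genes. In the lard conventional, lard germ-free and fish oil germ-free groups it was 0.089, 0.11 and 0.074, each below the median of all genes (0.12, 0.14 and 0.13). For 38 of the 47 genes the fish oil conventional group had the largest SD, against 46.5% of all genes. No test of spread was made.

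**Figure D3:**
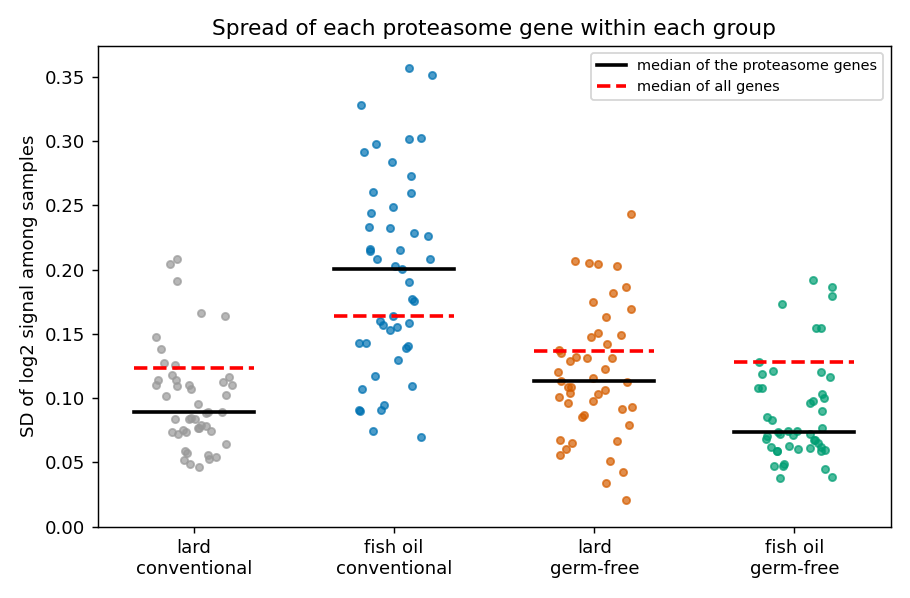
SD of the log2 signal among samples for each of the 47 proteasome genes (points) in the 4 groups, with the median of these genes (solid line) and of all genes (dashed line). The proteasome median is above that of all genes in the fish oil conventional group, at 0.20 against 0.16, and below it in the other 3 groups.

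The widest gene was Psmg2, a chaperone of the core, with an SD of 0.36 in the fish oil conventional mice and values from 8.20 to 9.09. Psmc6, an ATPase, ran from 9.62 in mouse 2 to 10.67 in mouse 3 of that group, while in the lard conventional mice it stayed between 10.12 and 10.27. Mouse 2 was the lowest of its group in 16 of the 47 genes and mouse 3 in 12, but mouse 3 was also the highest in 13. Psme3, the nuclear activator, was at 11.79 in mouse 3 and 10.96 to 11.35 in the other 5 mice, whereas Psma7 was at 9.16 in mouse 3. So mouse 3 was not low in every subunit. The clock index of these 6 mice ran from -2.04 to 3.66, wider than the 1.96 to 4.33 of the lard conventional mice. In the fish oil germ-free samples, whose median SD was 0.074, the index ran from -0.77 to 4.09. The part of the clock index in the spread was not tested.

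**Figure D4:**
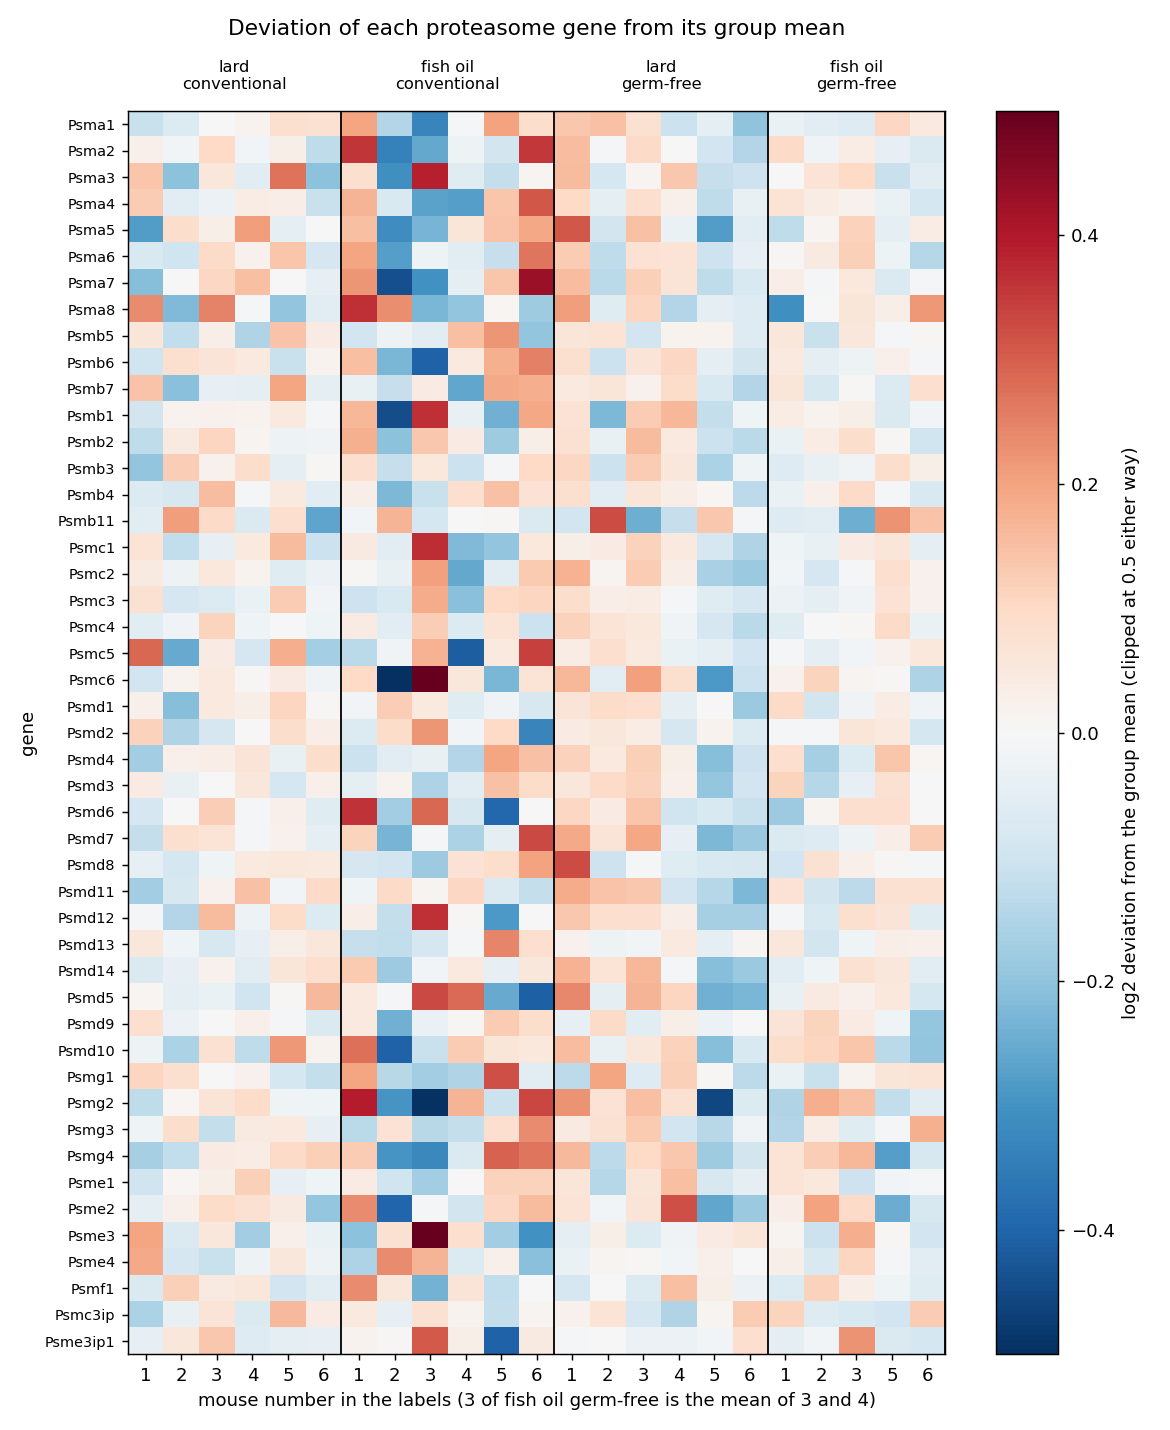
Deviation of each of the 47 proteasome genes (rows, ordered by role) from its group mean in each of the 23 samples (columns, by group and mouse number), on a log2 colour scale clipped at 0.5. The strongest colours are in the fish oil conventional mice, and lard germ-free mice 5 and 6 are mostly below their group mean.

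Within groups the genes moved together to a small degree on average. The mean pairwise correlation of their deviations from the group means was 0.14 over the 23 samples and 0.20 over the 17 samples outside the fish oil conventional group, against 0.011 and 0.0051 for all genes. Single pairs differed widely over the 23 samples, from 0.89 for Psmb1 and Psmc6 to -0.83 for Psmb6 and Psme3. These values are a description: the genes share the same arrays and their normalization. The mean of the 47 genes was lowest in fish oil conventional mouse 2, at 9.88, and in lard germ-free mice 5 and 6, at 9.93 and 9.94, and it lay between 9.96 and 10.12 in the other samples.

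The inducible peptidases Psmb8, Psmb9 and Psmb10, which replace the standard ones after interferon and shape peptides for antigen presentation, are outside the 47 genes, and 1 of the 3 was called by diet. Psmb9 was at 8.34, 8.62 and 8.82 (lowest, median and highest) in the fish oil conventional mice and at 8.89, 9.01 and 9.15 in the lard conventional mice. The groups did not overlap. It fell by 0.43 on the log2 scale on fish oil (SE 0.099, interval -0.63 to -0.22), 1.34-fold, with an adjusted p of 0.0423. Psmb8 was at -0.41 (adjusted p = 0.0837) and Psmb10 at -0.32 (adjusted p = 0.178). In germ-free mice the same contrast gave -0.32, -0.28 and -0.16 for Psmb8, Psmb9 and Psmb10, with adjusted p of 0.0913, 0.0784 and 0.489. The Psmb9 call was lost in 14 of 27 alternative settings, including those without fish oil mouse 2, 3, 5 or 6 or lard mouse 1, 3, 4, 5 or 6. Over all 12 settings that each left out 1 sample, the Psmb9 difference stayed between -0.47 and -0.38. No difference between germ-free and conventional mice was called for the 3 genes on either diet. Without fish oil conventional mice 5 and 6, Psmb10 on fish oil was at 0.42 with an adjusted p of 0.0157, in place of 0.24. By diet in germ-free mice, Psmb8 passed in 3 alternative settings (array weights, own groups only, and without those 2 mice; adjusted p from 0.0293 to 0.0481) and Psmb9 in 1 (without fish oil germ-free sample 2, at -0.35 with an adjusted p of 0.0271). The germ-free minus conventional differences lay between -0.11 and 0.078 on lard and between 0.034 and 0.24 on fish oil. The difference between the 2 diet contrasts was 0.090 for Psmb8, 0.15 for Psmb9 and 0.16 for Psmb10, with adjusted p of 0.897, 0.756 and 0.779. Lymphocytes and Kupffer cells also use these genes: in conventional mice 0 of 7 lymphocyte markers, with 3 or 4 of them below the arrays' 25th percentile, and 0 of 10 Kupffer markers were called by diet, and the list medians were -0.076 and 0.34. The part of either cell type in these values was not tested. The plot of the inducible peptidases shows all samples.

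**Figure D5:**
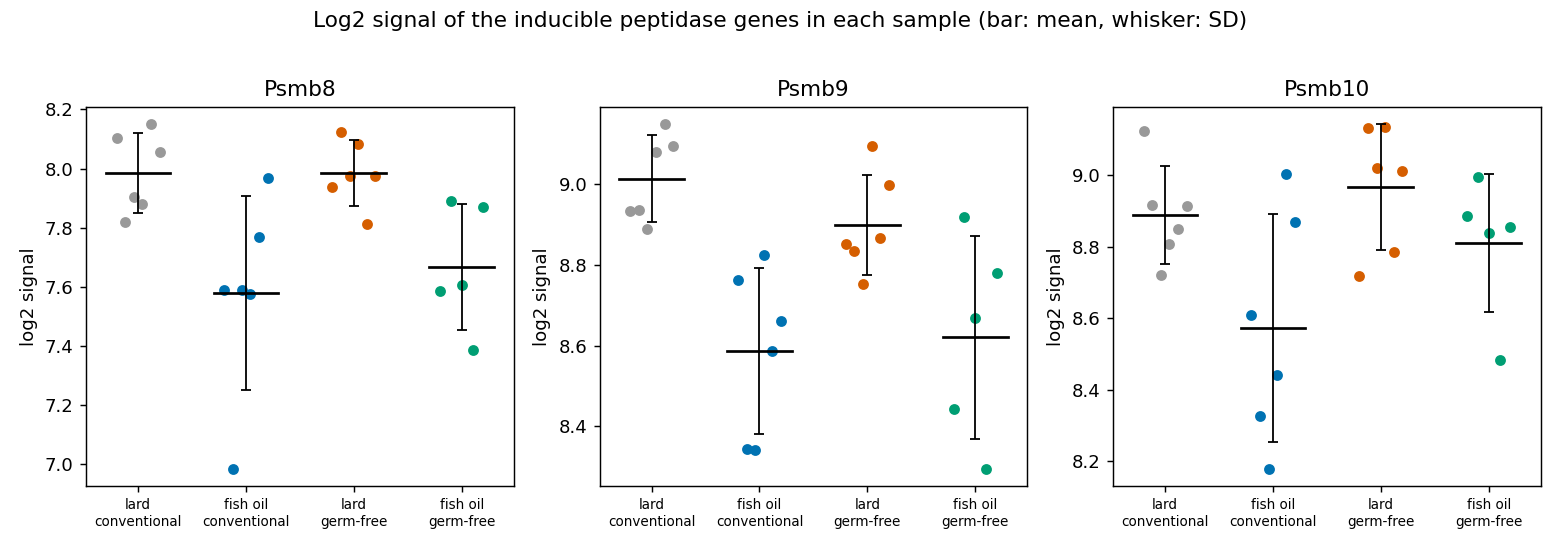
Log2 signal of Psmb8, Psmb9 and Psmb10 (a panel each) in every sample of the 4 groups, with the bar at the group mean and the whisker at 1 SD. In conventional mice every fish oil value of Psmb9 lies below every lard value, and fish oil and lard overlap for the other 2 genes.

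Partners of the proteasome were counted from a list of 26 genes, of which 18 were measured under their symbols. They included the core maturation factor Pomp, the deubiquitinases Usp14 and Uchl5, the factor Nfe2l1 and shuttle proteins of the ubiquilin family. None was called by diet in either kind of mouse or by microbial status on lard, where 2, 6 and 1 of the 18 had an unadjusted p under 0.05 (16.6%, 25.2% and 12.2% of all genes). On fish oil 5 of 18 had such a p (20.3% of all genes) and 1 of 18 was called, Ubqln4, a ubiquilin that carries tagged proteins to the proteasome. It was higher in germ-free than in conventional mice by 0.39 (SE 0.077, interval 0.23 to 0.55), 1.31-fold, with an adjusted p of 0.00299, and the call was lost in 1 of 26 alternative settings.

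The promoters of 4 called genes, Psma5, Psma7, Psmd4 and Psmc4, are shown to compare their motif content. Psmd3 was not matched. RefSeq promoters of GRCm38.p6, 250 bases before to 50 after each gene's start, were matched by symbol for 39 of the 47 genes. Each is printed 5′ to 3′ on the gene's strand, with motif matches in capitals.
Psma5 (chr3:108256676-108256975, plus strand): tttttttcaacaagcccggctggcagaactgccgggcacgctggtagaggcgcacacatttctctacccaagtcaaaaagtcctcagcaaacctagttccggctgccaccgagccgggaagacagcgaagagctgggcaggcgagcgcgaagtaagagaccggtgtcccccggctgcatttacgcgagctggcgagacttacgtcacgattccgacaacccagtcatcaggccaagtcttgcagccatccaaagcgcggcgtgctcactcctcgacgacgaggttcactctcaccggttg
Psma7 (chr2:180042415-180042714, minus strand): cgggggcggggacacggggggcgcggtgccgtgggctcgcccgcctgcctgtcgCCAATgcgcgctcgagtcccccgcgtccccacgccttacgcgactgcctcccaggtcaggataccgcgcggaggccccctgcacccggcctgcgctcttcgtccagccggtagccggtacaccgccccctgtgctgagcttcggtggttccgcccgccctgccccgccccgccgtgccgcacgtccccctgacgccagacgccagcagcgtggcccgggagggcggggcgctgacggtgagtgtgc
Psmd4 (chr3:95042565-95042864, minus strand): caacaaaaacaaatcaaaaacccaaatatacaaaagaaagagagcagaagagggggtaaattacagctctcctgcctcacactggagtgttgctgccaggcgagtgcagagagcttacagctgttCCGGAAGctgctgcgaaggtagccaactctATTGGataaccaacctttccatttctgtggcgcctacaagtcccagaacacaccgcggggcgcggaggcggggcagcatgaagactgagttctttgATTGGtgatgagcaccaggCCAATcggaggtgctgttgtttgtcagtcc
Psmc4 (chr7:28050043-28050342, minus strand): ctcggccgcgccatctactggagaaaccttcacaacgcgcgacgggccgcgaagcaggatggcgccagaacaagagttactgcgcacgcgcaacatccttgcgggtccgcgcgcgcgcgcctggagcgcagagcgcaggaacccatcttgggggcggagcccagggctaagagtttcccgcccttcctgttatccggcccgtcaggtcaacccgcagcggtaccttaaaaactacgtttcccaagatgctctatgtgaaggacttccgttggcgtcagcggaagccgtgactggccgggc
The motifs searched, on both strands, were CCAAT (the CCAAT box), CCGGAAG (an ETS factor core) and TGACNNNGC (the core of the antioxidant response element). Psma7 held 1 CCAAT box, Psmd4 held 3 and 1 ETS core, and Psma5 and Psmc4 held no match in this window. In Psmd4 only 1 CCAAT match lay before the gene's start, by 95 bases, and the others lay just after it. No matches overlapped. Over the 39 genes, 15 held a CCAAT box (38.5%, against 41.1% of 27025 genes), 16 an ETS core (against 9.93% of the 27025) and 6 an antioxidant core (15.4%, against 14.0%). The 6 were Psmb5, Psmb6, Psmc6, Psmd12, Psmd9 and Psme4. None of them was called in the main fit, where few of the 47 genes were, and Psmb5 and Psmb6 passed in some alternative settings. A match is a run of letters and not a measured binding site.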

How the data were processed

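Liver RNA of 24 mice was measured on Affymetrix MoGene 1.0 ST arrays from 250 ng of total RNA, per the labels' protocols. The deposited values are log2 signals made by the authors with RMA at gene level (apt engine 1.1.2800.28061, per the file headers): background correction, quantile normalization over the 24 arrays and median polish. The genome build was not given in the sources used here. RMA forces arrays to a common distribution, so shifts of the whole liver are removed and small fold changes are compressed. The number of mice limits the precision.

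Gene symbols came from GEO's platform annotation: 21789 of 35556 probe sets had 1 symbol, 1621 several and 12146 none listed, and only the first kind was used, with the highest-mean probe set per gene. Of them, 21698 matched a current record by Entrez identifier. Groups followed the labels. limma 3.58.1 in R 4.3.3 fitted 4 group means and 5 contrasts without covariates, with Benjamini-Hochberg adjustment over 19938 genes, and a gene is called at an adjusted p under 0.05. The fit was tested on simulated data. Their noise was independent between genes and equal in spread between groups, unlike these data, so the test does not cover those features. The 4 simple comparisons share groups. Mice 3 and 4 of the fish oil germ-free group had the smallest pairwise difference also over the 300 most variable of all probe sets (SD 0.525, against 0.631 or more); the version over genes was adopted after this one had been seen. The labels name no cages, litters or array batches, and p-values measure only the spread between these samples, which may be technical in part.

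Fold changes with tests are given for called proteasome genes with the smallest p, up to 6 per comparison, for called partner genes (up to 4) and for the 3 inducible peptidases; any other is said to be chosen after its values were seen. The members, roles, lists and alternatives were chosen with earlier results of these data known. Alternatives covered filtering, probe sets, scaling, variance model, covariates, a replicate block and leaving out mice.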

Additional observations from a re-analysis of the deposited data

Results flagged for a closer look

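Psmc4 in lard conventional mouse 3 was at 11.19, apart from the other 5 mice of its group, which lay between 11.03 and 11.08. The gap was 0.685 of the whole range of the group. It was 1 of 40 groups of mice examined in this way, and chance alone sets about 1 in 20 apart. Lard conventional mice do not enter the comparison in which Psmc4 was called, other than through the shared estimate of spread.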

How the results depend on the processing

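Counts of called proteasome genes changed with the settings, and the cause was not tested. For fish oil against lard in germ-free mice (3), the count was 6 with genes above the median signal only, a second quantile normalization or array weights, 8 with equal array medians, 7 on the comparison's own groups, 5 with the 75th percentile as a covariate or without fish oil conventional mice 5 and 6, and 0 with the clock index or without mice 5 and 6 of both germ-free groups; leaving out 1 sample gave 1 to 3. For germ-free against conventional mice on fish oil (3), it was 1 with a second quantile normalization, the replicate block, the 75th percentile or without germ-free mice 5 and 6, 0 on its own groups and 6 without fish oil conventional mice 5 and 6; leaving out 1 sample gave 0 to 3. On lard (0) it was 1 with array weights, own groups or the clock index, and 0 to 1 leaving out 1 sample. In conventional mice by diet (0), leaving out 1 sample gave 0 to 1. For the difference of diet contrasts (0) it was 1 with equal array medians, array weights or 24 separate arrays and 3 without fish oil conventional mice 5 and 6; leaving out 1 sample gave 0. The replicate block, mouse number as a fixed term, gave 2 for the germ-free diet contrast and 0 for the other 3; it ended the call of Psmd3 there (0.20, adjusted p = 0.0830) and those of Psma7 and Psma5 by microbial status on fish oil (0.39 and 0.36, adjusted p = 0.0520 and 0.0604). Deviations of same-numbered mice correlated between -0.40 and 0.42 over the pairs of groups. Between the germ-free groups all 5 were above 0 (0.042 to 0.42), and 2 of 5 fish oil and 0 of 5 lard samples correlated best with their own number. Between the fish oil conventional and lard germ-free groups all 6 were also above 0 (0.023 to 0.19). There 3 of 6 fish oil conventional and 1 of 6 lard germ-free samples correlated best with their own number. Not every pair was above 0.1, so the numbers were not taken as pairs. Signs of single genes with tests turned for Psmb8 and Psmb9, where they were near 0, and counts above 0 by role also moved with scaling. Psmb8 on lard, germ-free minus conventional, was 0.047 with array weights, 0.00093 with the 75th percentile, 0.044 without germ-free mice 5 and 6 and -0.034 to 0.033 leaving out 1 sample. On fish oil Psmb8 ran from -0.030 to 0.17 and Psmb9 from -0.041 to 0.12 leaving out 1 sample, and Psmb8 in the difference of diet contrasts from -0.029 to 0.17. In the contrasts where they were called, none of the 5 proteasome genes turned sign in any setting run. Signal limited Psma8, Psmb11 and Psmc3ip, which were near or below the arrays' 25th percentile.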
